A study of Mus musculus with 12 samples.

Results

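Deletion of Smad3 was accompanied in normal mouse kidney by much lower levels of 4 putative noncoding transcripts, ncRNA_aligned_6640, ncRNA_aligned_2560, ncRNA_aligned_2421 and ncRNA_aligned_1946. They are 4 of the 42452 transcripts listed in the series and 4 of the 24816 with enough reads to be tested. They were selected on their read counts, as the transcripts with an edgeR adjusted p under 0.05 between normal Smad3 knockout (KO) and normal wild-type (WT) kidney, 0.0161% of those tested, so their levels in these 2 groups are a description and not a test. The choice favoured high values in normal WT and low values in normal KO kidney. Levels of injured kidneys set against either normal group are therefore descriptions too, and a lack of overlap with it is no test. Only ncRNA_aligned_6640 and ncRNA_aligned_2560 were without any read in normal KO kidney. The other two were lower there but present, ncRNA_aligned_2421 with 8 reads over both libraries and ncRNA_aligned_1946 with 5057 and 5073 reads.

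Smad3 is a transcription factor that is phosphorylated by the activated TGF-β receptor, binds Smad4, enters the nucleus and raises or lowers transcription of its target genes. In the kidney it is best known for driving fibrosis, and both protein-coding and noncoding RNAs are among its targets. Long noncoding RNAs are transcripts without a recognised open reading frame, some of which act on chromatin, splicing or the stability of other RNAs, while the role of most is unknown. No role is given in the tables for any of the 4 transcripts.

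All animals were C57BL/6J mice and all libraries were made from whole kidney, as the labels give them, with ribosomal RNA removed and RNA over 150 bp taken from a gel. WT and Smad3-KO mice were each studied as normal animals, which the sample labels call normal while the protocol also mentions sham operation. The second condition was unilateral ureteral obstruction (UUO), in which the left ureter is tied and pressure in the blocked kidney leads to inflammation and fibrosis, here taken at day 5 from groups of 8 mice of both genders. The third was anti-GBM glomerulonephritis, raised in animals immunized with sheep IgG by sheep globulin against the glomerular basement membrane at 60 μg/g of bodyweight, with a second injection at day 10 and no separate day of harvest in the protocol. Each of the 6 groups held 2 libraries. The labels give neither the sex nor the age of an animal, do not say how the Smad3 allele was made, and do not say whether 1 library is 1 animal, so p-values measure only the spread between these libraries.

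Reads on the listed transcripts came to between 4595261 and 7342937 per library. In 3 libraries (WT UUO 1, KO UUO 1 and KO anti-GBM 1) reads covered much less of each transcript than reads placed at random would, with a median ratio of 0.285 to 0.447 against 0.636 to 0.911 in the other 9. Several results are therefore also given without them. Smad3 itself was not analysed here, because the tables list noncoding transcripts, so the knockout was not checked at its own gene. For the same reason 1 of 33 fixed markers of kidney and immune cell types was found, an element of Spi1, and the labelled tissue could not be checked against its tubular and glomerular markers. Fewer cells that make a transcript and less of the transcript per cell cannot be told apart in whole kidney.

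Levels are given as reads and as read counts relative to library size (CPM) scaled by the trimmed mean of M-values (TMM), with the mean ± SD over 2 libraries. A group at 0 reads was set to 3 reads over the group, which gives an upper limit of its level and a lower bound of a fold difference. Overlap between the libraries of groups is given as a description only. How many of all transcripts lack overlap in the same comparisons was not counted.

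The first transcript, ncRNA_aligned_6640, has 1892 bases, and its best database match is a mouse long noncoding RNA entry numbered 422406. It is also assigned the Rfam model MIR806, which is assigned to 46 transcripts in the series. It had 412 and 390 reads in the normal WT libraries, 86.3 ± 2.5 CPM (SD, n = 2), and 0 reads in each normal KO library, at least 268-fold lower. The 2 WT values were nearly equal, and the reads covered 92.92% and 95.08% of its length. Both injuries had low levels in WT kidney too: 6 and 7 reads in UUO, 0.741 ± 0.217 CPM (SD, n = 2), and 45 and 52 reads in anti-GBM disease, 5.58 ± 0.123 CPM (SD, n = 2). These WT means were 117-fold lower in UUO and 15.5-fold lower in anti-GBM disease than in normal WT kidney, with no overlap between libraries.

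In injured KO kidney the transcript was present. KO UUO libraries had 5 and 7 reads, 0.852 ± 0.452 CPM (SD, n = 2), and KO anti-GBM libraries had 81 and 47 reads, 15.1 ± 8.21 CPM (SD, n = 2). Against the limit for normal KO kidney these were at least 2.65-fold and at least 46.8-fold higher. The order of ncRNA_aligned_6640 was therefore normal WT, KO anti-GBM, WT anti-GBM, KO UUO, WT UUO and normal KO, and with TMM scaling only KO UUO and WT UUO overlapped among these neighbours. By library size (RPKM) the anti-GBM groups overlapped too, and WT UUO stood above KO UUO. The reads of the KO anti-GBM libraries covered 37.74% and 42.65% of the transcript, where randomly placed reads of that number would cover 97.9% and 89.3%. These are ratios of 0.386 and 0.478, beside medians of 0.338 and 0.636 in the same libraries.

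The shortest of the set is ncRNA_aligned_2560, with 486 bases and a match to the noncoding cDNA AK151264. It was read almost only in normal WT kidney, with 208 and 115 reads, 34.7 ± 13.8 CPM (SD, n = 2), covering 95.27% and 93.21% of its length. The WT anti-GBM libraries had 2 reads each and the other 8 libraries had 0. Its level was thus at least 108-fold lower in normal KO, at least 215-fold lower in WT UUO and 150-fold lower in WT anti-GBM kidney than in normal WT kidney. Among the injured groups it had 4 reads in all, so no fold is given. The smallest unadjusted edgeR p there was 0.0284, for WT UUO against WT anti-GBM (adjusted p = 0.792). This transcript is left out of the counts of measurable transcripts given for those groups. It passed the filter on low counts through normal WT kidney alone, so a difference in this transcript could be found only there.

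**Figure D1:**
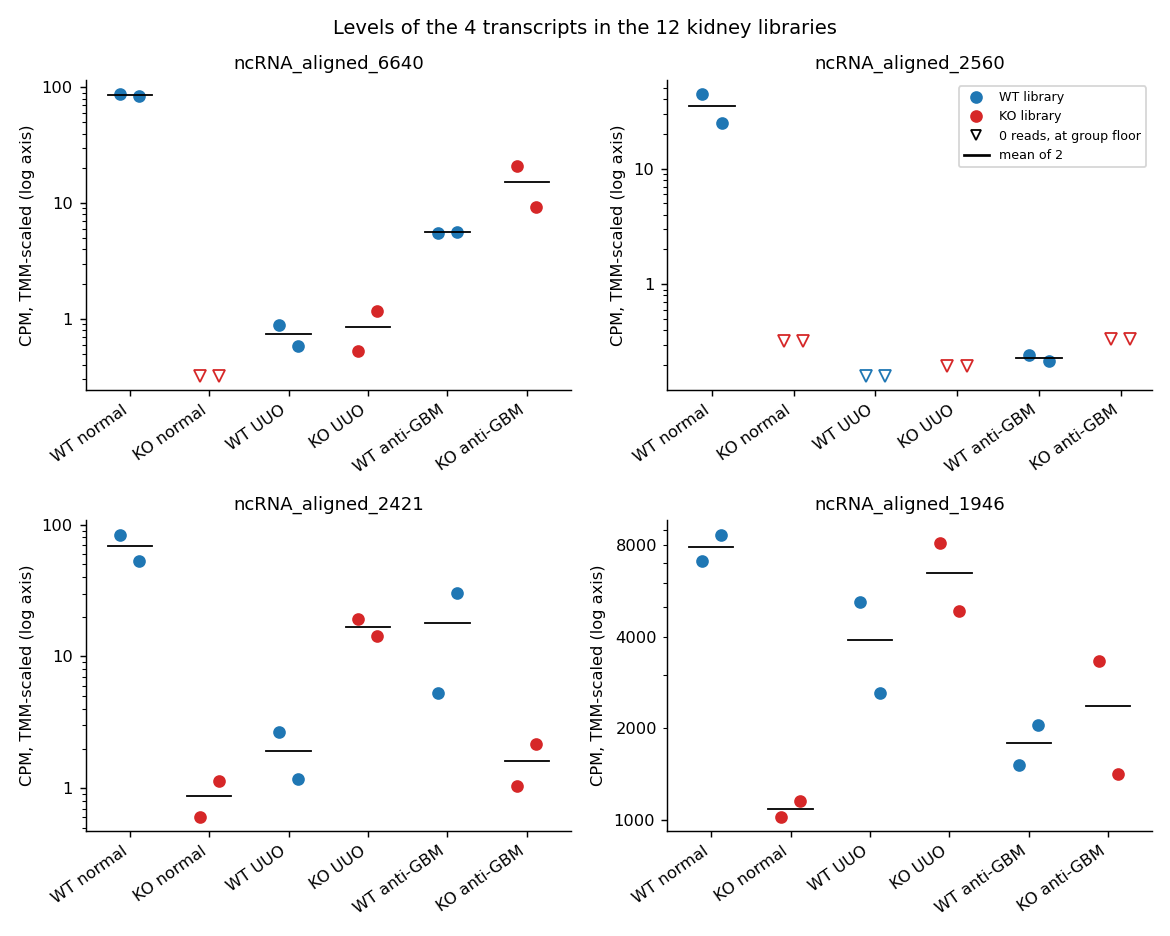
Levels of the 4 transcripts in the 12 libraries as TMM-scaled CPM on log axes, 1 point per library, blue for WT and red for KO, with a bar at the mean of 2. Open triangles mark libraries at 0 reads, drawn at the limit of 3 reads over the group; with this scaling normal WT kidney has the highest mean in each panel, and ncRNA_aligned_2560 is near or at 0 reads in the 5 other groups.

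A pair of longer transcripts has the same best match as ncRNA_aligned_2560 but was read in every group. They are ncRNA_aligned_41, with 6029 bases, and ncRNA_aligned_9, with 6053 bases, and both were read in all 12 libraries. ncRNA_aligned_41 had 408 to 1025 reads and ncRNA_aligned_9 had 306 to 782 reads. Their reads covered 12.04% to 36.76% and 11.27% to 27.77% of their length. Per length, ncRNA_aligned_41 was at 21.3 ± 2.11 RPKM (reads per length of transcript and library size; SD, n = 2) in normal WT and 13.7 ± 1.63 RPKM in normal KO kidney, against 53.6 ± 22.3 RPKM in normal WT and 0 in normal KO kidney for ncRNA_aligned_2560. On the TMM scale ncRNA_aligned_41 was at 172 ± 13.5 CPM in normal WT kidney (SD, n = 2). Its log2 difference between normal KO and normal WT kidney was -0.69. In WT UUO kidney its level depended on scaling. With TMM it was lower than in normal WT kidney, at 85.7 ± 3.31 CPM (SD, n = 2). By library size it was not lower, at 21.9 ± 0.777 RPKM against 21.3 ± 2.11 RPKM (SD, n = 2 in each). With TMM ncRNA_aligned_9 was at 94.6 ± 0.739 CPM in normal WT and 65.9 ± 5.05 CPM in normal KO kidney (SD, n = 2 in each). Both longer transcripts thus had lower means in normal KO than in normal WT kidney as well, by far less than ncRNA_aligned_2560. The log2 differences were -0.69 ± 0.49 for ncRNA_aligned_41 and -0.52 ± 0.44 for ncRNA_aligned_9 (SE), and neither passed with edgeR. In 6 comparisons among the injured kidneys neither longer transcript passed the edgeR threshold, with log2 differences between -0.71 and 0.69. Whether the 3 share sequence is not given in the sources used here, and since the deposited counts are of uniquely mapped reads, reads from a shared stretch could be missing from all of them.

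**Figure D2:**
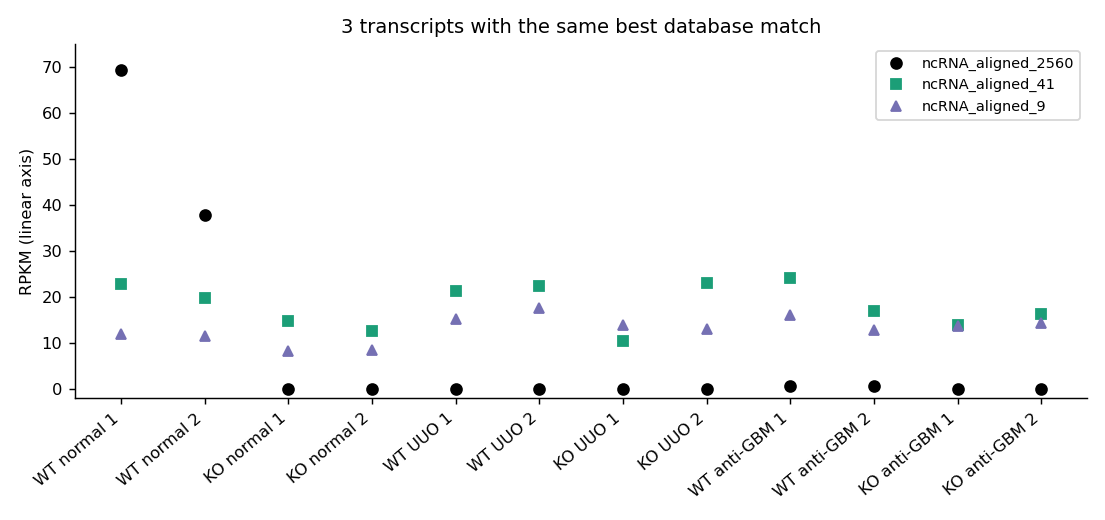
RPKM of ncRNA_aligned_2560, ncRNA_aligned_41 and ncRNA_aligned_9 in each of the 12 libraries on a linear axis. The longer pair stays between 8.32 and 24.01 RPKM throughout, while ncRNA_aligned_2560 reaches 69.3 and 37.8 RPKM in normal WT kidney and is below 1 RPKM elsewhere.

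The third transcript, ncRNA_aligned_2421, has 1580 bases and matches the noncoding cDNA AK014162. It had 394 and 246 reads in normal WT kidney, 68.8 ± 21.9 CPM (SD, n = 2), and 3 and 5 reads in normal KO kidney, 0.872 ± 0.372 CPM, 78.9-fold lower. In UUO the genotypes stood the other way round: WT libraries had 18 and 14 reads, 1.93 ± 1.07 CPM, and KO libraries had 182 and 85 reads, 16.8 ± 3.64 CPM (SD, n = 2 in each). In anti-GBM disease WT was again higher, with 43 and 280 reads, 17.9 ± 17.9 CPM, against 4 and 11 reads, 1.6 ± 0.803 CPM, in KO (SD, n = 2 in each). The 2 WT anti-GBM libraries differed widely, at 5.25 and 30.5 CPM, but both were above both KO anti-GBM libraries. Neither genotype difference passed with edgeR (adjusted p = 0.246 in UUO and 0.12 in anti-GBM disease).

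Neighbours in the order of ncRNA_aligned_2421 overlapped between WT anti-GBM and KO UUO, between WT UUO and KO anti-GBM, and between KO anti-GBM and normal KO. With TMM scaling normal WT kidney stood above all of these, while by library size WT anti-GBM 2, at 25.8 RPKM, was above normal WT 2, at 24.9 RPKM, and WT UUO no longer overlapped KO anti-GBM. KO UUO was 19.3-fold above normal KO kidney. Reads on this transcript were spread over its length in KO UUO 2, where 85 reads covered 93.42%, and were concentrated in KO UUO 1, where 182 reads covered 39.24% and randomly placed reads would cover 100%. KO UUO 1 is 1 of the 3 libraries of low coverage: its median ratio was 0.285, and that of this transcript in it was 0.392.

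By far the most abundant is ncRNA_aligned_1946, of 7652 bases, which matches the cDNA AK016173 and the Rfam model IRES_TrkB, a model of an internal ribosome entry site of the mRNA for the neurotrophin receptor TrkB. The same model is assigned to 13 transcripts in the tables. Its reads numbered 33293 and 39972 in normal WT kidney, 7892 ± 1095 CPM (SD, n = 2), and 5057 and 5073 in normal KO kidney, 1089 ± 88.4 CPM, 7.25-fold lower. It was therefore reduced and not lost, and in each library 94.47% to 99.31% of its length was covered. Per length its normal WT level, 769 ± 91.2 RPKM, was above those of ncRNA_aligned_2560 at 53.6 ± 22.3 RPKM, ncRNA_aligned_6640 at 34.1 ± 1.68 RPKM and ncRNA_aligned_2421 at 32.6 ± 11 RPKM (SD, n = 2 in each).

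In obstructed kidney ncRNA_aligned_1946 had higher means than in anti-GBM disease in both genotypes, without overlap between libraries. Neither difference passed with edgeR (adjusted p = 0.668 in WT and 0.185 in KO). WT UUO libraries had 34925 and 31131 reads, 3908 ± 1831 CPM, and KO UUO libraries had 76278 and 29151 reads, 6499 ± 2293 CPM (SD, n = 2 in each). In anti-GBM disease WT libraries had 12468 and 18879 reads, 1789 ± 378 CPM, and KO libraries had 12930 and 7171 reads, 2372 ± 1357 CPM. KO UUO was 5.97-fold and KO anti-GBM 2.18-fold above normal KO kidney, and every injured library was above both normal KO libraries. Along the order of levels with TMM scaling, all neighbouring groups overlapped except WT anti-GBM and normal KO, and by library size WT anti-GBM was above KO anti-GBM. The place of WT UUO depends on scaling: it was below normal WT by 1.01 on the log2 scale with TMM (log2 -1.01) and level with it, at 0.03, when reads were divided by library size alone. On the RPKM scale, which uses library size, the KO UUO mean of 1073 ± 647 (SD, n = 2) was above the normal WT mean.

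Whether genotype or injury changed the transcripts was tested only in 6 comparisons among the 8 injured libraries, whose means were not compared in the choice, with edgeR's quasi-likelihood test and Benjamini-Hochberg adjustment over the 24816 transcripts. All 12 libraries share the scaling, the filter and the spread, so the tests and the choice are not fully independent.

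Between KO and WT in UUO, 0 of the 3 measurable transcripts passed with edgeR, where 0.00806% of all tested transcripts did. Of the 3 measurable ones 1 had an unadjusted p under 0.05, against 6.08% of all, and 1 passed with DESeq2, against 0.447%. The transcript ncRNA_aligned_2421 was higher in both KO libraries, with a log2 difference of 3.14 ± 0.78 (SE, edgeR adjusted p = 0.246), and is the one that passed with DESeq2 (adjusted p = 0.0326). In the 9 libraries of higher coverage, which leave 1 UUO library in each genotype, this difference was 3.56. For ncRNA_aligned_6640 the difference was 0.18 ± 0.74 (SE, edgeR adjusted p = 0.999) and for ncRNA_aligned_1946 it was 0.73 ± 0.42 (SE, edgeR adjusted p = 0.873). The UUO libraries of both genotypes overlapped for ncRNA_aligned_6640 and did not for ncRNA_aligned_2421. The median over all tested transcripts was -0.16.

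Between KO and WT in anti-GBM disease, 0 of the 3 measurable transcripts passed with edgeR, against 0.0201% of all. Of the 3 measurable ones 2 had an unadjusted p under 0.05, against 14.8% of all, and 1 passed with DESeq2, against 1.75%. That one was again ncRNA_aligned_2421, now lower in KO, at -3.45 ± 0.81 (SE, edgeR adjusted p = 0.12) and with a DESeq2 adjusted p of 0.00784. Without the library WT anti-GBM 2 the edgeR difference was -1.64. In the 9 libraries of higher coverage, which leave 1 KO anti-GBM library, it was -3.07. Xist had 27 and 14 reads in WT against 362 and 5040 in KO anti-GBM kidney, a log2 difference of 7.81 ± 2.81 (SE, edgeR adjusted p = 0.312, DESeq2 adjusted p = 0.0176), and its part in these results was not tested. The other two had positive differences that did not pass, ncRNA_aligned_6640 at 1.43 ± 0.63 (SE, edgeR adjusted p = 0.316) and ncRNA_aligned_1946 at 0.41 ± 0.42 (SE, edgeR adjusted p = 0.658). The median of all tested transcripts was -0.62 here, and the difference of ncRNA_aligned_1946 was -0.37 when scaled by library size alone and -0.35 in the 9 libraries of higher coverage.

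The test of whether the genotype difference itself differed between the injuries gave, for ncRNA_aligned_2421, a log2 value of 6.59 ± 1.12 (SE), with an edgeR adjusted p of 0.0667. It missed the threshold, and 0 of the 3 measurable transcripts passed, against 0.00403% of all. Of the 3 measurable ones 1 had an unadjusted p under 0.05, against 7.45% of all, and 1 passed with DESeq2, against 0.21%, namely ncRNA_aligned_2421 at an adjusted p of 0.000144. Over 18 alternatives it passed in 7 and failed in the rest, among them the fit without WT anti-GBM 2. Its log2 values there ran from 4.8 to 7.41. The 18 leave aside further fits in which libraries were left out and the filter was recomputed, which are given in the last section. All 18 kept the sign, so KO stood higher relative to WT in UUO than in anti-GBM disease in each. They are refits of the same libraries, so the shared sign is no separate evidence. The values for ncRNA_aligned_6640, -1.24 ± 0.98 (SE, edgeR adjusted p = 0.789), and ncRNA_aligned_1946, 0.33 ± 0.59 (SE, edgeR adjusted p = 0.935), were close to their errors.

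For KO against WT averaged over both injuries, 0 of the 3 measurable transcripts passed with edgeR, against 0.234% of all. Of these 3, 0 had an unadjusted p under 0.05, against 15.8%, and 0 passed with DESeq2, against 2.71%. The log2 differences were 0.80 ± 0.49 for ncRNA_aligned_6640, -0.15 ± 0.53 for ncRNA_aligned_2421 and 0.57 ± 0.29 for ncRNA_aligned_1946 (SE), with edgeR adjusted p-values from 0.341 to 0.913.

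Between the injuries within KO, 1 of the 3 measurable transcripts passed with edgeR, against 0.0242% of all. This was ncRNA_aligned_6640, lower in UUO than in anti-GBM disease by a log2 difference of -4.15 ± 0.73 (SE, edgeR adjusted p = 0.0415), with both UUO libraries below both anti-GBM libraries. The difference was -2.99 in the 9 libraries of higher coverage, which leave 1 KO library in each injury. In a fit of the 8 injured libraries alone it was -4.14 ± 1.12 and no longer passed (SE, edgeR adjusted p = 0.251). It also lost the call in 7 of 12 fits that left out 1 library, those without either KO anti-GBM, WT anti-GBM or normal WT library or without KO UUO 1, with an adjusted p of at most 0.197. Other transcripts had different levels in this comparison, and their part in it was not tested. Xist had 4 and 6 reads in KO UUO and 362 and 5040 in KO anti-GBM kidney, a log2 difference of -9.59 ± 3.1 (SE, edgeR adjusted p = 0.325, DESeq2 adjusted p = 0.00294). An element matched to Ctgf was at -1.74 ± 0.48 (SE, edgeR adjusted p = 0.171), and one matched to the myeloid transcription factor gene Spi1 at 0.92 ± 0.82 (SE, edgeR adjusted p = 0.631), with a median of 0.43 over all tested transcripts.

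The other two measurable transcripts had higher means in KO UUO than in KO anti-GBM disease without passing with edgeR, ncRNA_aligned_2421 at 3.36 ± 0.81 (SE, edgeR adjusted p = 0.116) and ncRNA_aligned_1946 at 1.45 ± 0.42 (SE, edgeR adjusted p = 0.185). DESeq2 called 2 of the 3 measurable transcripts in this comparison, against 1.7% of all, ncRNA_aligned_6640 and ncRNA_aligned_2421 (adjusted p = 0.0123), and 3 had an unadjusted edgeR p under 0.05, against 13.1%. Within WT, 0 of the 3 measurable transcripts passed between UUO and anti-GBM disease with edgeR, against 0.0967% of all. Of the 3 measurable ones 3 had an unadjusted p under 0.05, against 5.77% of all, and 2 passed with DESeq2, against 0.83%. In WT, ncRNA_aligned_6640 was lower in UUO at -2.91 ± 0.71 (SE, edgeR adjusted p = 0.152) and ncRNA_aligned_2421 at -3.23 ± 0.78 (SE, edgeR adjusted p = 0.141), and these are the pair called by DESeq2. Without WT anti-GBM 2 the value of ncRNA_aligned_2421 was -1.45 (edgeR adjusted p = 1). The value of ncRNA_aligned_1946 was 1.13 ± 0.42 (SE, edgeR adjusted p = 0.668).

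**Figure D3:**
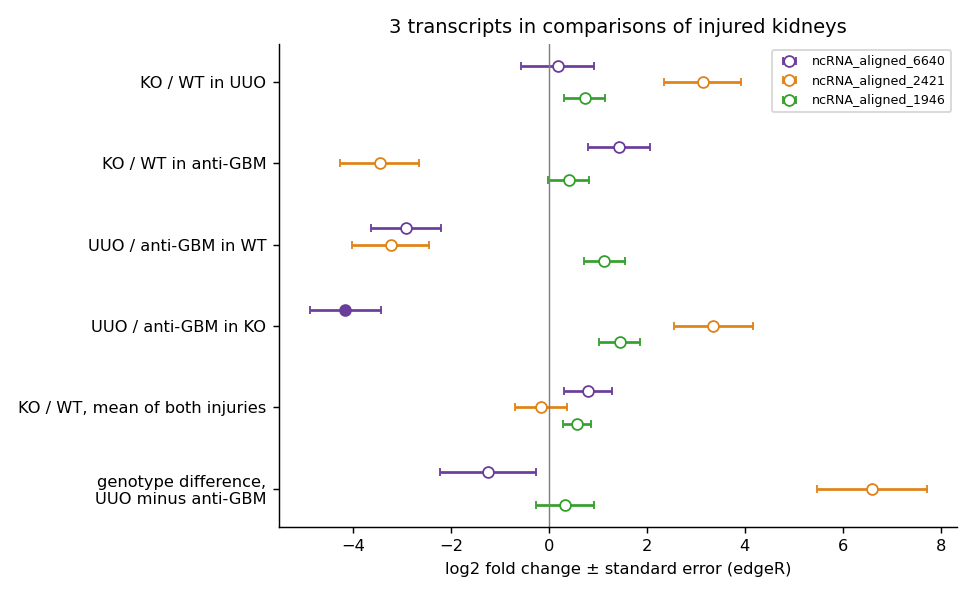
Log2 fold changes from edgeR with standard errors for 3 of the transcripts in the 6 comparisons of injured kidneys, filled where the adjusted p was under 0.05. The 1 filled point is ncRNA_aligned_6640 in KO UUO against KO anti-GBM at -4.15, and ncRNA_aligned_2421 lies on opposite sides of 0 in the genotype comparisons of UUO and anti-GBM disease.

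How far the reads of a transcript spread along it was described as well. This spread rises with the read count, on which the choice was made, so it is not an independent measure. In normal WT kidney each of the 4 was covered over 92.92% or more of its length in both libraries. Randomly placed reads of those numbers would cover 100%. High counts did not always go with high coverage: in KO UUO 1, 182 reads on ncRNA_aligned_2421 covered 39.24%, where randomly placed reads would cover 100%. In the injured groups the thin coverage of ncRNA_aligned_6640 was seen in libraries of both genotypes: 45 and 52 WT anti-GBM reads covered 52.38% and 62.32%, where randomly placed reads would cover 88.2% and 91.6%. A shortfall was also present for ncRNA_aligned_2421 in WT UUO 1, where 18 reads covered 20.57%, and not in WT UUO 2, where 14 reads covered 55.44%. Its ratio to random placement in WT UUO 1 was 0.321, beside a median of 0.447 in that library of low coverage.

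**Figure D4:**
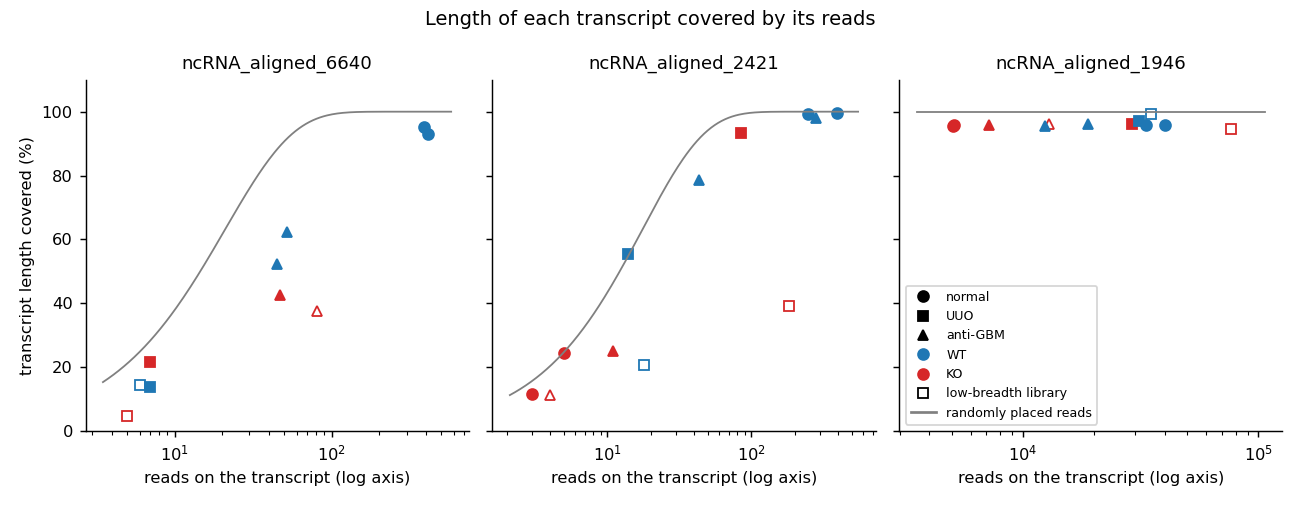
Percent of the length covered against the number of reads on a log axis for 3 of the transcripts, 1 point per library with reads (blue WT, red KO, shape by condition, open for the 3 libraries of low coverage), with the value for randomly placed reads of 90 bases as a grey line. Points of ncRNA_aligned_1946 lie near the top throughout, between 94.47% and 99.31%, while those of ncRNA_aligned_6640 in anti-GBM kidney lie below the line.

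The transcripts next beyond the threshold of the choice were also lower in normal KO kidney. The last inside it, ncRNA_aligned_2560 and ncRNA_aligned_1946, had an adjusted p of 0.00842. The next were ncRNA_predict_8223, with 93 and 15 WT reads against 0 and 0, and ncRNA_aligned_2133, a match to a human long noncoding RNA entry with 60 and 37 WT reads against 0 and 0, both at 0.0579. After them came ncRNA_aligned_4173 (786 and 1576 WT reads against 192 and 143, adjusted p = 0.0843) and ncRNA_aligned_10503 (883 and 791 WT reads against 114 and 157, adjusted p = 0.12). The first 2 of these 4 thus also had 0 reads in normal KO kidney, at lower WT counts than ncRNA_aligned_6640.

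The transcripts with the most similar pattern over the 12 libraries were sought among the 4315 tested ones with a mean of 10 CPM or more, by Pearson's r of log2 CPM, as a description; the libraries are shared and the high normal WT values weigh on every r. Among themselves the 4 had r from 0.46, between ncRNA_aligned_6640 and ncRNA_aligned_1946, to 0.77, between ncRNA_aligned_6640 and ncRNA_aligned_2560. The closest to ncRNA_aligned_1946 were ncRNA_aligned_7512 at 0.912 and ncRNA_aligned_1572 at 0.902, both matches to conserved regions predicted by EvoFold to form RNA structure, and the unmatched ncRNA_predict_3756 at 0.882. Mean levels of ncRNA_aligned_7512 were 416 CPM in normal WT, 109 in normal KO, 276 in WT UUO, 282 in KO UUO, 184 in WT anti-GBM and 185 in KO anti-GBM kidney.

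The nearest transcripts to ncRNA_aligned_2421 share its pattern, with the genotypes in opposite order in the 2 injuries. They were picked for this likeness in the same libraries, so it is no separate evidence for the pattern. These were ncRNA_predict_4999 at r = 0.848, ncRNA_aligned_2997 at 0.843 and ncRNA_predict_4137 at 0.825. The second, a match to the noncoding cDNA AK080180, had means of 498 CPM in normal WT, 17.4 in normal KO, 10.8 in WT UUO, 91.4 in KO UUO, 41.8 in WT anti-GBM and 3.21 in KO anti-GBM kidney. Nearest to ncRNA_aligned_6640 were ncRNA_aligned_773 at 0.85, ncRNA_predict_3740 at 0.831 and ncRNA_aligned_1579 at 0.815. For ncRNA_aligned_2560 they were ncRNA_predict_2411 at 0.867, ncRNA_aligned_3087 at 0.858 and ncRNA_aligned_2310 at 0.854, but by rank correlation these stood at places 265, 701 and 935, as 8 of the 12 values of ncRNA_aligned_2560 are 0.

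Xist, the RNA that coats the inactive X chromosome in females, differed between the normal KO libraries, with 119 reads (24.2 CPM) in the first and 5636 (1279 CPM) in the second, and had 4 and 100 reads in normal WT kidney. The levels in the same 2 normal KO libraries, which are among the values that chose the transcripts, were 0 and 0 CPM for ncRNA_aligned_6640 and ncRNA_aligned_2560, 0.609 and 1.14 CPM for ncRNA_aligned_2421, and 1027 and 1152 CPM for ncRNA_aligned_1946. Whether the sex of the animals had a part in the results was not tested.

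Of 17 genes of the TGF-β and Smad pathway, 1 was represented, by an element matched to Ctgf (connective tissue growth factor), a known target of TGF-β. It had 612 and 831 reads in normal WT, 1476 and 472 in normal KO, 1270 and 2799 in WT UUO, 1783 and 1207 in KO UUO, 2504 and 1620 in WT anti-GBM and 3201 and 2474 in KO anti-GBM kidney. It was not called by edgeR or DESeq2 in any of the 6 comparisons and had an unadjusted edgeR p under 0.05 in 3. Of 28 known long noncoding RNAs 6 were found, with 5 transcripts tested. In each of the 6 comparisons 0 of these were called by edgeR, with at most 1 at an unadjusted p under 0.05. DESeq2 called 1 in KO against WT anti-GBM disease and 1 between the injuries in KO, and this was Xist in both. The median log2 difference of the 5 was -0.72 between KO and WT in UUO and -0.43 in anti-GBM disease, beside -0.16 and -0.62 over all tested transcripts. The Spi1 element had 16 and 16 reads in normal WT, 3 and 72 in normal KO, 301 and 604 in WT UUO and 94 and 105 in WT anti-GBM kidney.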

How the data were processed

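Kidney RNA of 12 libraries was profiled, 2 in each of 6 groups given by genotype and disease model in the labels. The submitters' processing notes name Bowtie 0.12.7 as the aligner and mm9 as the genome build; the assembly of transcripts, the assignment of reads and any strand setting are not given in the sources used here, so reads of overlapping or antisense transcripts cannot be told apart. The deposited counts are uniquely mapped reads per transcript, per the file headers, and are the values tested. The authors' RPKM values equal the reads scaled by transcript length and by the total of reads listed, within a relative deviation of 1.752e-14. Coverage is deposited as a percent of transcript length, and mean depth as a signal, which with counts and lengths gives reads of 90 bases. A transcript not listed in a table was taken as 0 reads.

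edgeR 4.0.16 in R 4.3.3 was run with TMM scaling, filterByExpr by group (24816 of 42452 transcripts kept, all 4 members among them), 1 mean per group and robust quasi-likelihood F tests, with a threshold of 0.05. Limits for 0 reads cover counting error only. Breadth of coverage used transcripts over 500 bases with 20 to 200 reads. Simulated counts with known changes were used to check the fit. The text names all 4 transcripts, the 4 next in adjusted p, the 3 of most similar pattern and those sharing a database entry. The transcripts, gene lists and comparisons were chosen with earlier results of these data known. Alternatives were DESeq2 1.42.0 as test and as size factors, library size, no filter, the 8 injured libraries, 9 libraries of higher breadth and leaving out each library.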

Additional observations from a re-analysis of the deposited data

How the results depend on the processing

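How many of the 4 transcripts were called depends on the processing. So does the number called over all transcripts, whose ranges are given in the last paragraph of this section. With all 12 libraries, each setting that called more of the 4 in a comparison also called more of all transcripts there. A higher number among the 4 was therefore not specific to them. In KO against WT UUO the number of the 4 that were called was 0, and 1 without the low-count filter or with DESeq2. In KO against WT anti-GBM it was 0, and 1 with library size, without the filter or with DESeq2. In WT UUO against WT anti-GBM it was 0, then 2 without the filter or with DESeq2 and 1 in the 9 libraries of higher breadth, with the filter kept or recomputed. In KO UUO against KO anti-GBM it was 1, then 3 with library size or without the filter, 0 in the 8 injured libraries, and 2 in the 9 libraries with either filter or with DESeq2. For the interaction it was 0, and 1 with DESeq2 size factors, library size, no filter, DESeq2, or the 9 libraries with the filter recomputed. Leaving out 1 library gave 0 to 1 in KO against WT UUO, 0 to 1 in KO against WT anti-GBM, 0 to 2 in WT UUO against WT anti-GBM, 0 to 3 in KO UUO against KO anti-GBM and 0 to 1 for the interaction. These fits and the 9-library fit kept the 24816 transcripts. That choice was made after the version with the filter recomputed had been seen, which gave more calls and is included in these ranges: ncRNA_aligned_6640 in KO UUO against KO anti-GBM passed in 5 of 12 fits with the transcripts kept and in 12 of 12 with the filter recomputed, and the interaction of ncRNA_aligned_2421 in 3 and in 11. Fits that leave 1 library in a group assume that it varies like the other groups.

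Values that changed sign, on the log2 scale, were those of ncRNA_aligned_6640 in KO against WT UUO (-0.24 with library size, and -0.43 to 0.67 leaving out 1 library, -0.49, -0.02 and up to 0.81 with the filter recomputed) and its interaction (0.24 in the 9 libraries, 0.29 with the filter recomputed), ncRNA_aligned_1946 in KO against WT anti-GBM (-0.37 with library size, -0.35 in the 9 libraries, -0.33 with the filter recomputed, -0.34 to 0.9 leaving out 1) and its interaction (-0.16 to 1.07 leaving out 1, -0.08 to 1.09 with the filter recomputed), and the averaged genotype difference of ncRNA_aligned_2421 (0.25 in the 9 libraries, 0.3 with the filter recomputed, -0.54 to 0.76 leaving out 1, and -0.55 to 0.72 with the filter recomputed, where it was above 0 at 0.08, 0.16 and 0.72). None of these passed the threshold in the fit reported. Their cause was not tested.

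With library size alone the differences from normal kidney were -8.02 for ncRNA_aligned_6640 in normal KO, -5.82, -6.68, -4.13 and 0.03 for ncRNA_aligned_6640, ncRNA_aligned_2560, ncRNA_aligned_2421 and ncRNA_aligned_1946 in WT UUO, -3.21, -6.5 and -1.38 for ncRNA_aligned_6640, ncRNA_aligned_2560 and ncRNA_aligned_1946 in WT anti-GBM, and 4.98 and 3.3 for ncRNA_aligned_2421 and ncRNA_aligned_1946 in KO UUO. For ncRNA_aligned_2421 in WT anti-GBM it was -1.13 with library size and -1.94 with TMM, within the spread of its libraries. DESeq2 size factors gave -3.76 for ncRNA_aligned_6640 in WT anti-GBM. The scaling moved the median of all transcripts as well, from -0.615 with TMM to -1.371 with library size in KO against WT anti-GBM and from 0.434 to 1.084 in KO UUO against KO anti-GBM.

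Calls over all transcripts ranged more widely, being lowest or highest over the alternatives that leave out no single library at 3 and 243 (2 in the fit reported) for KO against WT UUO, 3 and 2064 (5) for KO against WT anti-GBM, 17 and 464 (24) for WT UUO against WT anti-GBM, 3 and 837 (6) for KO UUO against KO anti-GBM, 26 and 2075 (58) for the averaged genotype and 0 and 209 (1) for the interaction. In the comparison that chose the transcripts they were 6 and 279 (4), 1 to 10 leaving out 1 library and 14 to 90 with the filter then recomputed, so which transcripts make up the set depends on the fit. No paired analysis was possible because the sample titles carry codes that differ between libraries, and no numbers shared between groups; the numbers 1 and 2 used here only follow accession order.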
